A study of Mus musculus with 2 samples.

Results

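The genes described here remove calcium ions from the cytosol: the sodium-calcium exchangers Slc8a1, Slc8a2 and Slc8a3, the calcium pumps of the plasma membrane Atp2b1, Atp2b2, Atp2b3 and Atp2b4, and Atp2a2, the calcium pump of the endoplasmic reticulum. Their peaks are those that carry one of these 8 gene symbols in the authors' peak annotation, and a gene without such a peak counts as 0. All 8 genes had a peak, and together they took 132 of the 99782 annotated peaks. The genes were chosen from earlier results on this same peak list, in which the peak at the start of Slc8a2 was among those with the highest maximum signal, so the counts and heights below describe the peak list and carry no test.

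The peaks came from CUT&Tag, in which an antibody tethers the transposase Tn5 to chromatin so that the DNA around the antibody's target is cut and sequenced. Hippocampus of C57BL/6J mice with the genotype CamK-PARIS gave 1 library with an anti-FLAG antibody, which recognises a short peptide tag, and 1 library with IgG as the negative control. Neither library had a treatment, both came from the same genotype, and a library from mice without the transgene was not analysed here. The labels give neither the age, sex or number of the animals nor the promoter behind "CamK". With 1 library per antibody no replicate error exists. The IgG library enters only through the authors' peak calling, and the sequencing depth is unknown from these files.

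PARIS is a zinc-finger repressor of transcription encoded by Zfp746, and it is best known as a substrate of the ubiquitin ligase parkin that binds insulin response sequences. Neurons let calcium in during firing and must return it to a very low resting level. Exchangers of the Slc8 family have a high capacity and use the sodium gradient, the Atp2b pumps have a high affinity, are driven by ATP and are activated by calmodulin, and Atp2a2 refills the endoplasmic reticulum.

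The sequences at the gene starts and under the tallest peaks are shown first, since the peaks of these genes fall into those at starts and those in introns or far upstream. Coordinates are on mm10 (GRCm38.p6) and counted from 1. The first set holds the 250 bases before a RefSeq transcription start, read 5′ to 3′ on the gene's strand, and it was chosen to set the tallest start peak of the family (Slc8a2) beside other starts with a peak (Slc8a3 and the second start of Atp2b1) and the outermost start of Slc8a1, which had none. Capitals mark matches to the insulin response sequence, searched as TATTTTT or TATTTTG, and to the GC box, searched as GGGCGG. Both strands were searched, so a match can also appear as the reverse complement. Each motif was counted wherever it occurred, overlaps included. The Slc8a2 sequence is chr7:16129576-16129825 (plus strand), Slc8a3 is chr12:81333181-81333430 (minus strand), Atp2b1 is chr10:98914902-98915151 (plus strand) and Slc8a1 is chr17:81738388-81738637 (minus strand).
Slc8a2 promoter: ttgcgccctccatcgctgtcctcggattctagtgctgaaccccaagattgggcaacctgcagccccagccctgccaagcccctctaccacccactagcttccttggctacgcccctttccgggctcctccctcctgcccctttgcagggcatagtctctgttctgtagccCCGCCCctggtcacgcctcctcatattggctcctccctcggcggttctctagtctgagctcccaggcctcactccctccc
Slc8a3 promoter: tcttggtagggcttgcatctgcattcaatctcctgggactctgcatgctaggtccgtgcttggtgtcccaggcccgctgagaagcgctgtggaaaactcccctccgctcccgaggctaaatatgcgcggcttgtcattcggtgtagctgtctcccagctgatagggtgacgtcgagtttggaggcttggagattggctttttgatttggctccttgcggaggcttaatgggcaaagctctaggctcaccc
Atp2b1 promoter: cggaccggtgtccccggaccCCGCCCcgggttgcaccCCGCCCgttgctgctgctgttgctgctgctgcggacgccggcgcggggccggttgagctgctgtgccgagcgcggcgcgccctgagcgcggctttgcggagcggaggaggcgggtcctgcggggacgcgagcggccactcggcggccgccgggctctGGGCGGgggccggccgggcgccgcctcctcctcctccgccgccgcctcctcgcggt
Slc8a1 promoter: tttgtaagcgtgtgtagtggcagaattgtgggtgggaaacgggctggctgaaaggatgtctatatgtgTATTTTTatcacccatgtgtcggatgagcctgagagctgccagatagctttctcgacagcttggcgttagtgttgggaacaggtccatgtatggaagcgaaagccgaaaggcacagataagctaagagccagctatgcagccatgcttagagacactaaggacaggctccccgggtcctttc

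The Slc8a2 promoter held 1 GC box and 9 CpG dinucleotides at 63.2% G+C, against 3 GC boxes and 41 CpGs at 80.8% G+C for Atp2b1. The Slc8a3 promoter held neither motif. Motifs were counted over the whole RefSeq entry, which runs on for 50 bases past the start. The Slc8a1 promoter was the only RefSeq promoter entry of these genes with an insulin response sequence, and the nearest peak lay 67816 bp from its start. RefSeq (GRCm38.p6) had 9 promoter entries for 6 of the 8 genes, with none for Atp2a2 and Atp2b3. Over 32851 RefSeq promoters of 300 bases, 11.3% held an insulin response sequence and 35.7% a GC box.

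The second set shows 200 bases of the plus strand centred on the region of maximum signal of the tallest peak of Atp2a2 and of each plasma membrane pump. They are shown because they are the tallest peaks of these genes, and none of the windows overlaps an annotated exon. Atp2a2 is chr5:122502364-122502563 (at the gene start), Atp2b4 is chr1:133842369-133842568 (upstream), Atp2b2 is chr6:113856781-113856980 (intron), Atp2b3 is chrX:73517222-73517421 (intron) and Atp2b1 is chr10:98758277-98758476 (upstream).
Atp2a2 peak: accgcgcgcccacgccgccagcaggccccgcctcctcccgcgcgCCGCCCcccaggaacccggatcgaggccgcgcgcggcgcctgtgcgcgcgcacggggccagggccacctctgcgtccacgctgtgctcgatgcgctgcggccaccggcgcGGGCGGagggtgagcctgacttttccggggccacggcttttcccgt
Atp2b4 peak: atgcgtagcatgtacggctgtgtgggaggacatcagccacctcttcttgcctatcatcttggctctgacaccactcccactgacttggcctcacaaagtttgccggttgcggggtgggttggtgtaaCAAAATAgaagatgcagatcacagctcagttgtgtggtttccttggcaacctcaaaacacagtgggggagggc
Atp2b2 peak: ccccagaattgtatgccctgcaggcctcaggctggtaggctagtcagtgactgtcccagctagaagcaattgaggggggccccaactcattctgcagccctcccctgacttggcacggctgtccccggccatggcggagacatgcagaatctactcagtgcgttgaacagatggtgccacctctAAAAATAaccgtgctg
Atp2b3 peak: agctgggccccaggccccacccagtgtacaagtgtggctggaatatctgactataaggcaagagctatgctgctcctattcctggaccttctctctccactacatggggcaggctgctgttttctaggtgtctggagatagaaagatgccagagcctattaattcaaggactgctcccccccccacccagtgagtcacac
Atp2b1 peak: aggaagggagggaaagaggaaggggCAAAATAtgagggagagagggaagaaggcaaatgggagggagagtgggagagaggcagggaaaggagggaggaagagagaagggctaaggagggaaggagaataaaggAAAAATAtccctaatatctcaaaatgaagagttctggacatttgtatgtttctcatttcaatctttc

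The Atp2a2 window had 78.5% G+C, 33 CpGs and 2 GC boxes. Those of the 4 plasma membrane pumps had 45.5 to 57.5% G+C and 0 to 5 CpGs. An insulin response sequence was present in the windows of Atp2b4 (1 match), Atp2b2 (1 match) and Atp2b1 (2 matches), and not in those of Atp2b3 and Atp2a2. Over all windows of the 132 peaks, 11 (8.33%, exact 95% interval 4.23 to 14.4) held the motif, against 9.96% of 99707 peaks on chromosomes 1 to 19, X and Y. Their share was therefore within counting error of the background. None of the 23 peaks within 3 kb of a transcription start site (TSS) held it, and the 11 that did were 7 intron and 4 distal intergenic peaks. The share over all peaks within 3 kb of a TSS was not computed, so this split is a description only.

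Peaks were spread very unevenly over the 8 genes. Atp2b2 had 47, Atp2b1 29, Atp2b4 20, Slc8a1 17, Slc8a2 and Atp2a2 6 each, Atp2b3 5 and Slc8a3 2. The median over the 8 genes was 11.5, against 2 (quartiles 0 and 5) over 21938 protein-coding genes and 5 (2 and 10) over the 7442 that are at least as long as the shortest of the 8, Slc8a2 at 31.2 kb. Of all protein-coding genes, 72.7% had an assigned peak. Atp2b2 alone held 47 of the 132 peaks, and 85 remained without it.

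The shape of a peak was taken as its total signal divided by its maximum signal times its width. A ratio of at least 99% means a block of constant height. Peaks not of this kind made up 61 of the 132 (46.2%, 37.5 to 55.1), against 36.7% of all annotated peaks. Among the peaks within 1 kb of a TSS they were 12 of 15 (80.0%, 51.9 to 95.7; background 55.5%), in introns 34 of 72 (47.2%, 35.3 to 59.3; background 34.3%) and in distal intergenic sequence 10 of 29 (34.5%, 17.9 to 54.3; background 31.9%). Atp2b2 held 20 of the 34 such intron peaks, among its 35 in introns. Without Atp2b2 the overall share was 36 of 85 (42.4%, 31.7 to 53.6) and the intron share 14 of 37 (37.8%, 22.5 to 55.2), and both intervals contain the background.

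**Figure D1:**
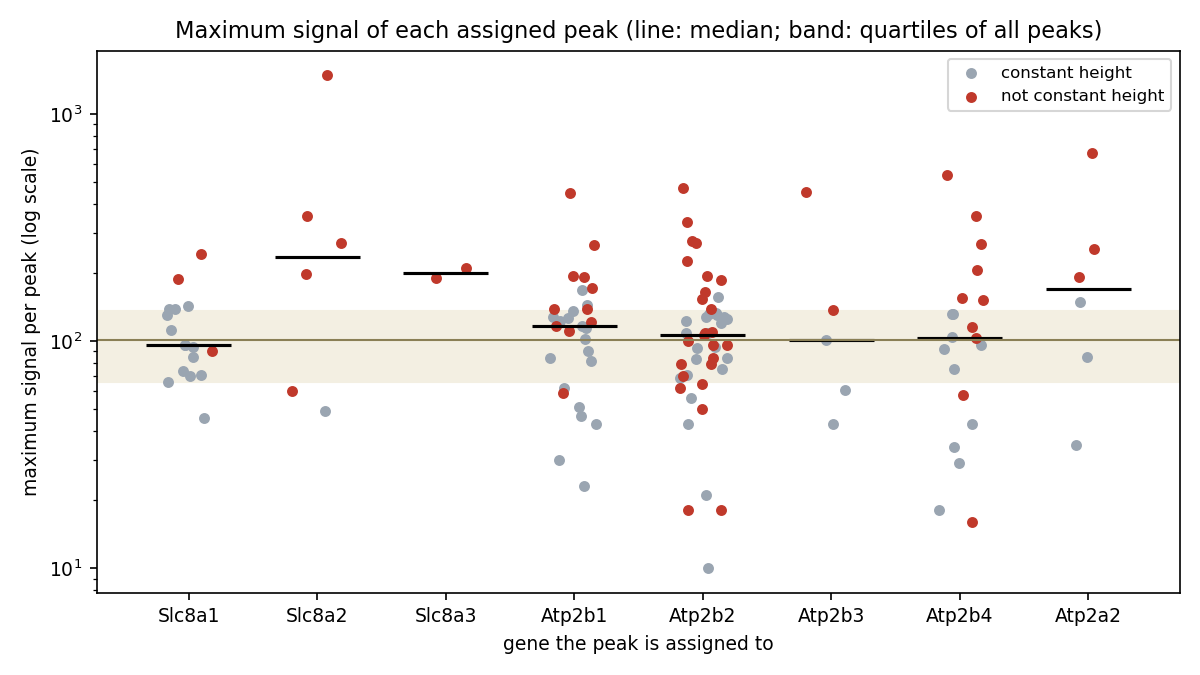
Maximum signal of each assigned peak on a log scale, by gene; red points are peaks not of constant height, grey points constant-height peaks, black bars the gene's median and the band the quartiles of all peaks around their median of 101. The Slc8a2 start peak at 1478 and the Atp2a2 start peak at 671 stand above all other points, and the gene medians run from 96 for Slc8a1 to 234 for Slc8a2.

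Maximum signal, in the units of the authors' coverage, had a median of 109.5 over the 132 peaks and 101 over all annotated peaks. Of the 132, 24 were among the top 10% by maximum signal, a class that holds 9.94% of annotated peaks. Since a high maximum signal entered the choice of the genes, this count is given as a description only. All 24 were not of constant height. Every gene had at least 1 such peak, with 6 in Atp2b2, 4 each in Slc8a2, Atp2b1 and Atp2b4, 3 in Atp2a2 and 1 each in Slc8a1, Slc8a3 and Atp2b3. The matching shares over all peaks of the top 10% and over all genes were not computed, so neither count sets these genes apart.

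Most of these peaks lay away from gene starts. Of the 132, 23 (17.4%, 11.4 to 25.0) were within 3 kb of a TSS, against 24.6% of annotated peaks, a value inside the interval. Introns held 72 (54.5%, 45.7 to 63.2), of which 5 lie outside the gene they are assigned to (4 peaks of Atp2b1 in an intron of Gm5427 and 1 of Slc8a1 in an intron of AC122399.1), and 29 (22.0%, 15.2 to 30.0) were distal intergenic. The remaining 8 were in exons or 3′ UTRs. Even so, 7 of the 8 genes had a peak within 1 kb of a TSS, and in all 7 at least 1 of these was not of constant height. Of all protein-coding genes, 42.3% had a peak within 1 kb of a TSS and 28.7% had a start peak of varying height. Among the 7442 longer genes, 56.3% had a peak within 1 kb.

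**Figure D2:**
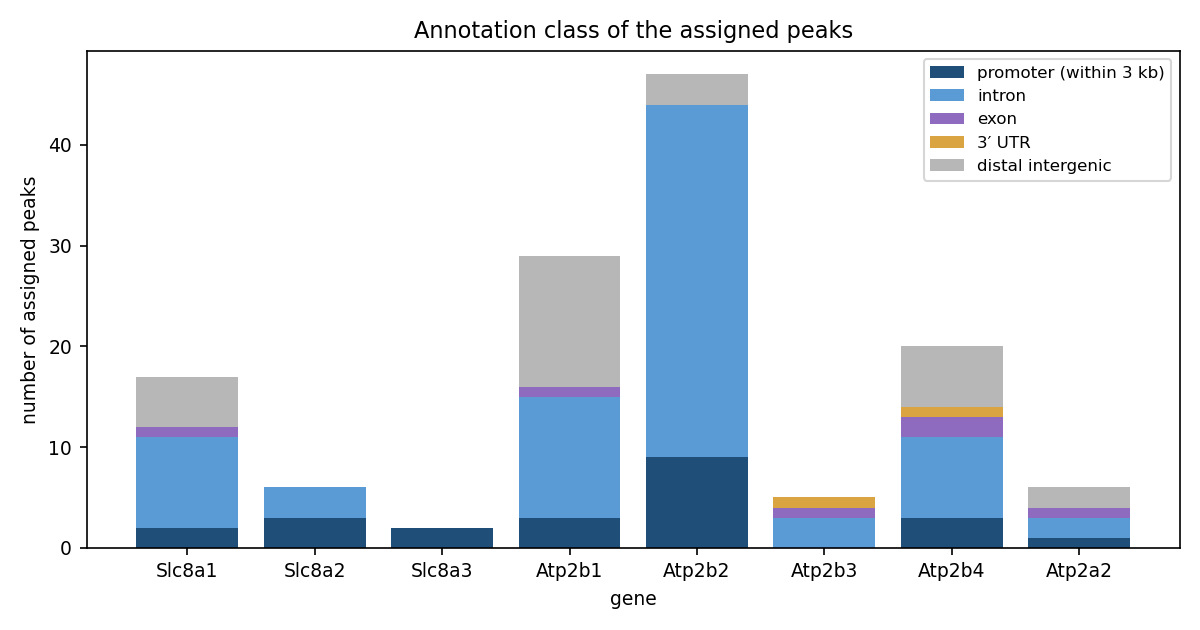
Number of assigned peaks of each gene by the authors' annotation class; the promoter class reaches 3 kb from a TSS. Atp2b2 has 35 intron peaks among its 47, Atp2b1 has 13 distal intergenic peaks among its 29, and Slc8a3 has promoter peaks only.

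Among the exchangers, Slc8a2 had the tallest start peak of any gene. Slc8a2 encodes NCX2, the exchanger found mainly in brain. Its 6 peaks had maximum signals of 1478, 354, 270, 198, 60 and 49. The highest, chr7:16129124-16130664, is 1541 bp wide, covers both annotated coding starts and has its region of maximum signal 9 bp from a TSS. It had rank 2 by maximum signal and rank 7 by total signal in the whole list and held 71.0% of the total signal of the peaks of Slc8a2. The 354 and 270 peaks lie in intron 4 of 9, so signal was high at the start and again well inside the gene, and the only constant-height peak was the lowest, at 49. When genes were ordered by their highest peak within 1 kb of a TSS, Slc8a2 was first of 10094, followed by Gfra2 at 1450 and Klf7 at 1263. The distance between these neighbours cannot be set against an error, because there is 1 library.

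Slc8a3 encodes NCX3, an exchanger of brain and skeletal muscle. It had only 2 assigned peaks, at 209 and 189, both within 1 kb of its start and neither of constant height. The taller, chr12:81332780-81333687, covers 3 of its 4 coding starts. A further 8 peaks overlap the body of Slc8a3 but carry the symbol of Gm3693, so they are not among the assigned peaks. The widest of these, chr12:81226169-81228881, is 2713 bp wide, reached 209 and lies 271 bp from the assigned TSS of Gm3693.

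Slc8a1 encodes NCX1, the exchanger of heart muscle that is also expressed in brain, and it is the longest of the 8 genes at 365 kb. Its 17 peaks ranged from 46 to 242 with a median of 96, and 14 were of constant height. A peak of 188 at chr17:81669993-81670571 covered 1 of its 4 coding starts, at 81670187. The other 3 coding starts had none within 1 kb: those at 81649607 and 81649608 lay 14022 and 14021 bp from a peak and the outermost, at 81738377, lay 67806 bp away. Of the 5 peaks assigned from upstream, 186174 to 469673 bp from a TSS, all had constant height. For 7 of the 17 peaks, the tallest among them, the nearest start of a coding transcript belonged to Gm11096 and not to Slc8a1. Of its 17 peaks, 3 (17.6%) were of varying height, against 36.7% of all annotated peaks. No interval was computed for this gene, so the share is a description only.

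**Figure D3:**
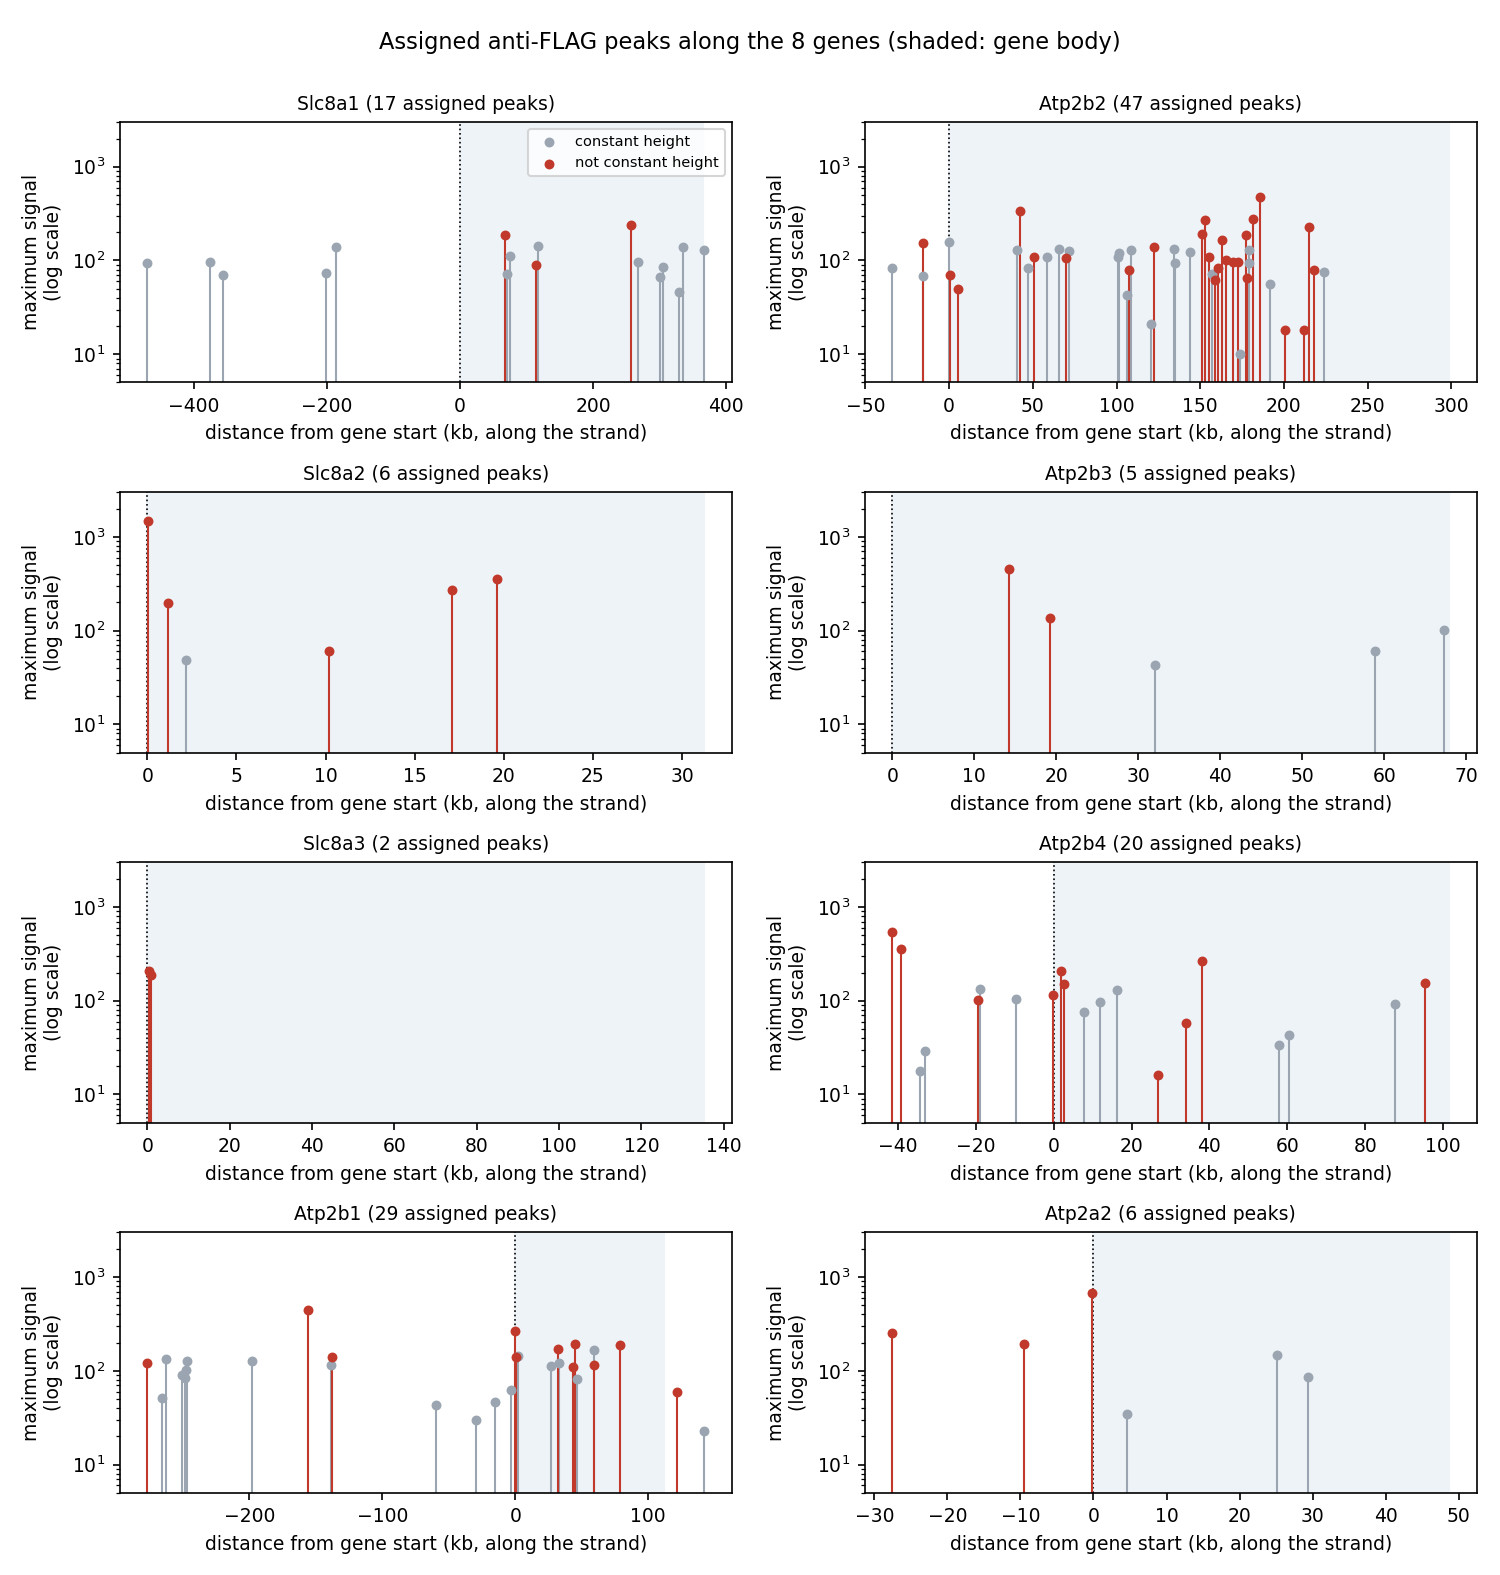
Maximum signal (log scale) of the assigned peaks along each gene against distance from the gene start in kb, with the gene body shaded; red is not of constant height, grey is constant height. Slc8a2, Slc8a3 and Atp2a2 have their tallest peak at the start, while the tallest peaks of Atp2b1 and Atp2b4 lie upstream and those of Slc8a1, Atp2b2 and Atp2b3 lie inside the gene.

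Among the plasma membrane pumps, the tallest peak of each gene lay away from the start, as it did in Slc8a1 but not in Slc8a2 and Slc8a3. Atp2b2 encodes PMCA2, the fast pump of neurons and of the hair cells of the inner ear, whose loss in mice causes deafness and ataxia. Its 47 peaks ranked 57th by number among 21938 protein-coding genes and ranged from 10 to 470 with a median of 106. The tallest, chr6:113856734-113857886, lies in intron 3 of 21, which held 18 peaks, 12 of them not of constant height. The next were 335 in intron 1 and 276 in intron 3.

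Many of the peaks of Atp2b2 lay on the gene-end side of its most internal coding start. Each of the 3 coding starts had a peak within 1 kb, and the tallest such peak reached 157 near 114042026 (402 bp away), 128 near 113934681 (587 bp away) and 194 on 113891539. Nearer to the outer starts were lower peaks, of 70 on 114042026 and of 79, 221 bp from 113934681. The peak on 113891539, chr6:113890885-113893260, is 2376 bp wide. From this start to the furthest assigned peak in the gene, a stretch of 74.7 kb picked after the peaks were seen (chr6:113818544-113893260), there were 23 peaks, 17 of them not of constant height. The adjoining 74.7 kb to the end of the gene had 7 peaks, 3 of them not of constant height, all assigned to Sec13 and at most 117 high. The same length on the other side of that start had 10 peaks, 2 of them not of constant height and at most 138 high.

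Atp2b1 encodes PMCA1, the pump found in nearly all tissues. Its 29 peaks ranged from 23 to 448 with a median of 116. Peaks of 264 and 139 covered its 3 upstream coding starts, at 98914406, 98915152 and 98915472, and neither was of constant height. The tallest peak lay 156021 bp upstream at chr10:98758205-98758725. It was 1 of 15 assigned from upstream, 3387 to 276639 bp from a TSS, of which 3 were not of constant height. For all 15, and for all the other peaks of Atp2b1, an Atp2b1 start was the nearest start of a coding transcript.

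Atp2b4 encodes PMCA4, known from red blood cells and sperm. Its 20 peaks ranged from 16 to 538 with a median of 103.5. The highest values stood upstream, at 538 (chr1:133841592-133842911) and 357 (chr1:133839899-133840812), 41409 and 39226 bp from the TSS. The peak on its outermost start, at 133801041, reached only 115, and peaks of 206 and 152 lay 1893 and 2475 bp inside the gene. The tallest assigned peak inside the gene, chr1:133762883-133763548, reached 268 in intron 1 of 20. Another 2 peaks, of 216 and 94, overlap the body of Atp2b4 but carry the symbol of Mir6903. The coding start at 133753747 lay 9136 bp from the nearest peak. The height of 115 was shared by 66 of 10094 genes, so no nearest neighbours in height can be named for this start.

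Atp2b3 encodes PMCA3, a pump of brain that lies on the X chromosome, and it was the gene without a start peak. Its 5 peaks had maximum signals of 454, 137, 101, 61 and 43. The tallest, chrX:73516735-73517520, lies in intron 1 of 20, 14232 bp from the start, and the 137 peak lies in the same intron. The nearest peak of any symbol to the start was 11791 bp away, reached 43 and was assigned to Bgn. As in Slc8a1, Slc8a2, Atp2b1, Atp2b2 and Atp2b4, a peak among the top 10% by height lay inside the gene and away from its start. Unlike these genes, Atp2b3 had no peak at its start. It has 1 annotated start, whereas these genes have 2 to 11, and the effect of this number was not tested.

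Atp2a2 encodes SERCA2, the pump of the endoplasmic reticulum in neurons and of the sarcoplasmic reticulum in heart. Its 6 peaks had maximum signals of 671, 255, 192, 148, 85 and 35. The tallest, chr5:122501788-122504032, is 2245 bp wide, covers both coding starts and ranked 72nd by maximum signal in the list. It held 63.9% of the total signal of the peaks of this gene. The 255 and 192 peaks lay upstream, 27514 and 9362 bp from the TSS, and the 3 inside the gene were all of constant height. Ordered by highest peak within 1 kb of a TSS, Atp2a2 was 40th of 10094, between Hrk at 674 and Ccdc130 at 670, with Mir1191b at 675 and Immt at 661 next to these.

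Over all 8 genes there are 28 coding starts, meaning starts of protein-coding transcripts in GENCODE M21. Of these, 15 had a peak within 1 kb and 14 were covered by one. The other 13 were starts of Slc8a1, Slc8a3, Atp2b1, Atp2b3 and Atp2b4. Several of the covered starts share a peak, and the share over all coding starts was not computed, so these counts are a description only. Of the 15 assigned peaks within 1 kb of a TSS, the median maximum signal was 188, against 116 over 15282 such annotated peaks. Atp2b2 held 5 of the 15. A high maximum signal at a start entered the choice of the genes, so these medians are a description only.

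The tall start peaks differed in base composition. In the 200 bp window on its summit, the Slc8a2 start peak had 60.5% G+C and 5 CpGs, whereas that of Atp2a2 had 78.5% and 33. Start peaks with many CpGs were not all tall: the Atp2b2 peak at 114042026 had 35 CpGs and a maximum signal of 70, and the Slc8a1 peak had 34 and 188. The median G+C content of the 15 windows was 64.0%, against 57.0% for all peaks within 1 kb of a TSS. Over all 132 windows it was 50.5% against 49.0%. Peaks not of constant height had a median of 53.5% and constant-height peaks 47.5%, close to the 52.0 and 47.0% of the whole list.

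**Figure D4:**
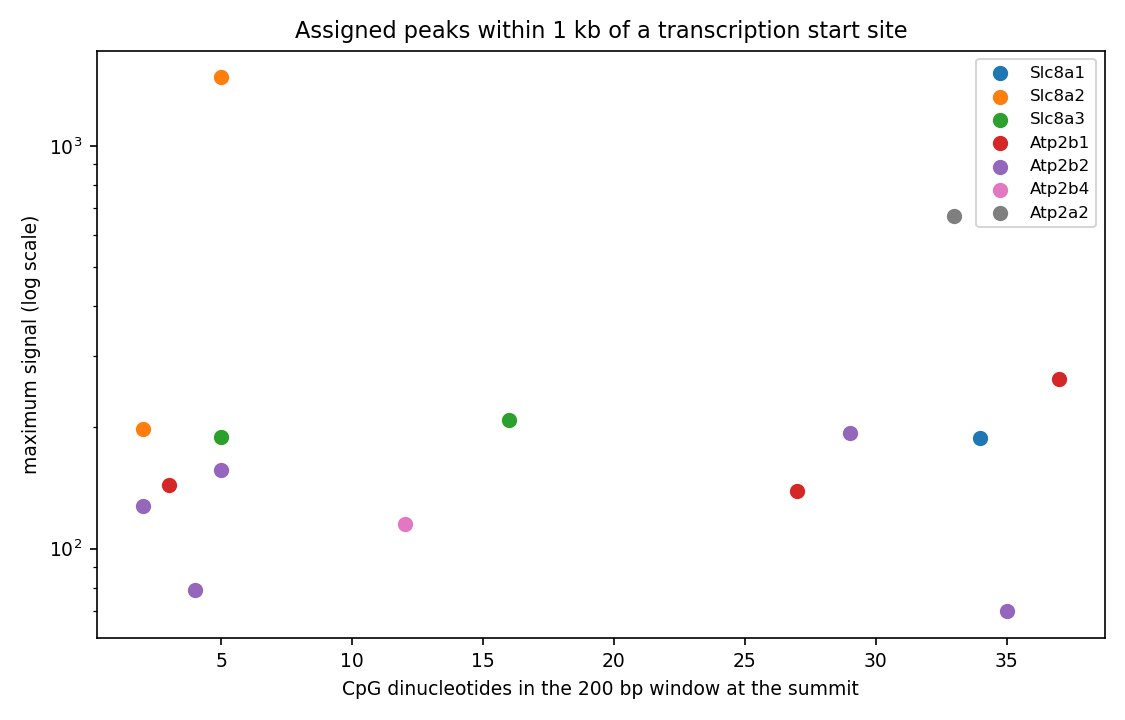
Maximum signal (log scale) of the 15 assigned peaks within 1 kb of a TSS against the number of CpG dinucleotides in the 200 bp window at the summit, coloured by gene. The tallest, Slc8a2 at 1478, has 5 CpGs and the next, Atp2a2 at 671, has 33; Atp2b3 has no point.

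Peak density in the gene body was above that of the chromosome in 7 of the 8 genes, Slc8a1 being the exception, and in 53.9% of the 7442 longer protein-coding genes. Counting every peak with the middle of its region of maximum signal in a gene body, whatever its symbol, there were 114 where the chromosome averages give 45.3, a ratio of 2.52 (2.08 to 3.03, exact Poisson 95% interval for counting error). This interval treats neighbouring peaks as independent. Atp2b2 held 51 of the 114 peaks, and without it the ratio was 1.84. Against all protein-coding gene bodies in place of the chromosomes, the ratio of the 8 genes was 1.80. These 2 values lie below the interval. Gene by gene, the ratio to the chromosome was 6.10 for Atp2b3, 5.77 for Slc8a2, 4.62 for Atp2b2, 3.87 for Atp2b4, 2.78 for Atp2b1, 1.96 for Slc8a3, 1.32 for Atp2a2 and 0.659 for Slc8a1. The same ratio had a median of 1.10 (quartiles 0.554 and 1.93) over the 7442 longer protein-coding genes, of which 1.01% reached the value of Atp2b3 and 1.24% that of Slc8a2, while 69.3% reached that of Slc8a1. The Atp2a2 value comes from 3 peaks, all of constant height, and 41.8% of the longer genes reached it. The Atp2b3 value comes from 5 peaks and is relative to the X chromosome, which had 12.1 peaks per Mb, against 35.6 to 46.6 on the chromosomes of the other genes. Among the top 10% of peaks by maximum signal the pooled ratio was 4.55. A high maximum signal entered the choice of the genes, and this ratio was not computed for the longer genes, so it is a description only.

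**Figure D5:**
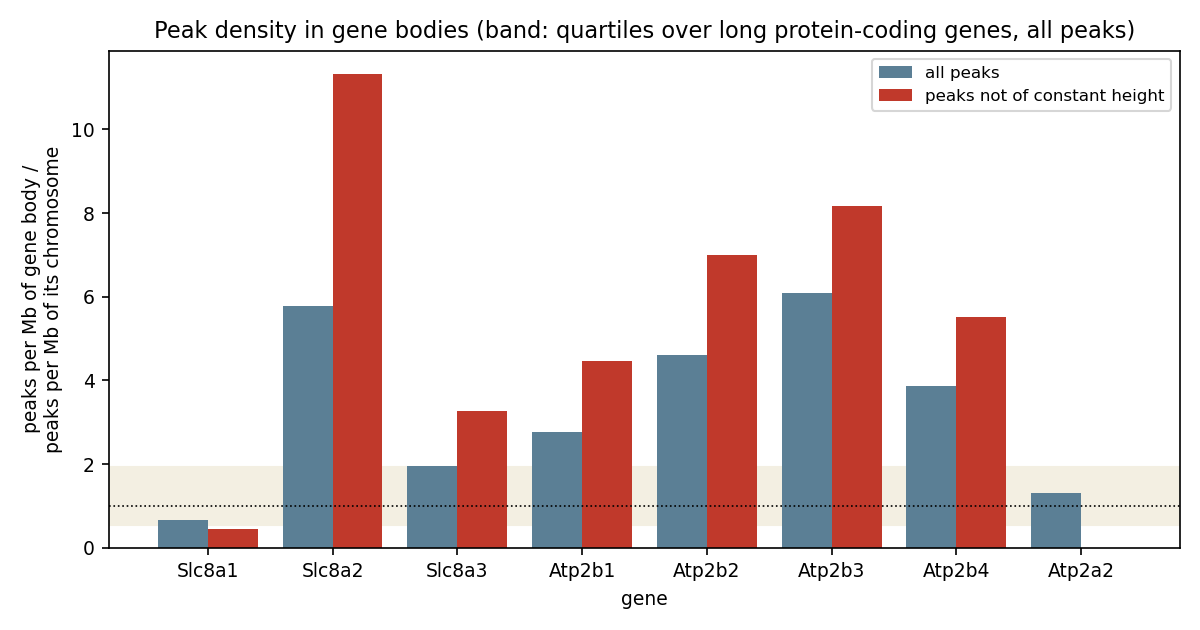
Peaks per Mb of gene body divided by peaks per Mb of the gene's chromosome, for all peaks (blue) and for peaks not of constant height (red); the dotted line is 1 and the band the quartiles of all peaks over 7442 longer protein-coding genes. For all peaks, Slc8a2, Atp2b1, Atp2b2, Atp2b3 and Atp2b4 lie above the band, Slc8a3 at 1.96 just over its upper edge, and Slc8a1 and Atp2a2 within it. The band is no reference for the red bars.

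Genes that work with these pumps and exchangers were counted from a list of 45. Of these, 32 had a peak within 1 kb of a TSS, 25 had a start peak of varying height, and 44 had an assigned peak anywhere. Over all protein-coding genes these shares were 42.3%, 28.7% and 72.7%, and 56.3% of the longer genes had a start peak. Pln, which encodes phospholamban, the inhibitor of Atp2a2 in heart, had no peak. All 11 genes of store release and refilling had a start peak, as did all 6 potassium-dependent and mitochondrial exchangers. Only 1 of the 4 other pumps of internal membranes did, Atp2a3 at 14, and 3 of 7 partners and regulators, 3 of 7 genes of mitochondrial uptake and 1 of 3 cytosolic buffers. High start peaks belonged to Atp1b1 at 346, a subunit of the sodium pump, which maintains the sodium gradient that the exchangers use, and to Stim2 at 322, a calcium sensor of the endoplasmic reticulum. Lower ones were those of Mcu, the pore of the mitochondrial uniporter, at 285, Smdt1, a further subunit of it, at 274, and Orai3, a store-operated channel, at 271. None of the 45 reached the 671 of Atp2a2 or the 1478 of Slc8a2. Atp2a2 was 40th of 10094 genes by this height, so few genes of any kind did. A high maximum signal also entered the choice of the 8 genes, so this is a description only.

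The labelled tissue could only be looked at through peaks, which are not expression. Of 6 genes that mark excitatory neurons of the hippocampus, 5 had a peak within 1 kb of a TSS (Neurod6 had none), and 4 had such a peak not of constant height (for Prox1 it was of constant height). Over all protein-coding genes a start peak was present in 42.3%, and in 56.3% of the longer ones. Of 3 liver genes none did, and of 3 genes of heart and skeletal muscle 2 did, Ckm at 138 and Acta1 at 17, both of constant height. Acta1 also had a peak of 597 away from its start, the highest of these marker genes.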

How the data were processed

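CUT&Tag was deposited for 1 anti-FLAG and 1 IgG library. Per the labels' protocols, the authors aligned trimmed reads with Bowtie2 (mm10), filtered out duplicates and reads of low quality, and used SEACR with IgG as control; versions are not given in the sources used here. The deposited peak list gives total and maximum signal per peak in whole units of coverage whose scaling is not stated. The deposited annotation table gives a gene symbol, a class and the distance to a TSS in bp; its total signal matched the peak list for 100% of annotated peaks, and 15 peaks had no annotation. Positions were compared with GENCODE M21, which held 98.9% of the assigned transcripts. The 99707 peaks on the assembled chromosomes fell inside their GRCm38.p6 lengths.

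The genes, the lists and the shape measure were chosen with earlier results of these data known. Named were the 8 genes, the 6 genes of the calcium list with the highest start peaks (1 of them is not reported here), and the 2 genes above and 2 below each of the 3 genes with the tallest peaks. Shares carry exact (Clopper-Pearson) 95% intervals, which cover counting error over peaks only. Python 3.11.15, pandas 2.3.3, SciPy 1.17.1 and pysam 0.24.0 were used. Only the calculations of peak shape, distance and merging were tested on simulated peaks.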

Additional observations from a re-analysis of the deposited data

How the results depend on the processing

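Across 6 results and 44 alternatives, 30 stayed close to the main value and 14 moved. Close meant inside the counting interval for shares and the density ratio. For counts it meant within a set fold range, so that 5 genes against 7 counted as close. Whether a result reversed was not assessed. Of the alternatives, 4, all leaving out Atp2b2, were chosen after seeing the data. The number of assigned peaks, 132, became 61 without constant-height peaks, 73 above the median maximum signal, 24 in the top 10% by maximum signal and 85 without Atp2b2; each of these sets is smaller by construction. The share of peaks not of constant height, 46.2%, became 60.3% above the median, 100% in the top 10% and 56.7% among peaks at least 200 bp wide. The share within 3 kb of a TSS, 17.4%, became 33.3% in the top 10% and 10.6% after merging peaks within 1 kb. The density ratio of 2.52 became 3.47 without constant-height peaks, 4.55 in the top 10%, 1.80 against all protein-coding gene bodies and 1.84 without Atp2b2. Of the 45 genes of the calcium list, 32 had a start peak and 12 did in the top 10%. The number of the 8 genes with a start peak stayed at 7 except in the top 10%, where it was 5. The share of all genes with a start peak in the top 10% was not computed. A high maximum signal also entered the choice of the 8 genes, so these counts in the top 10% are a description only. The cause of these movements was not tested where the sets differ in more than size. No paired analysis was possible because each antibody has 1 library. Unknown sequencing depth limits all heights.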
